A study of Arabidopsis thaliana with 8 samples.

Results

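The genes described here are those that the plastid genome of Arabidopsis thaliana carries for photosynthesis, for its own RNA polymerase and for a few other plastid functions. They were taken by symbol and not by their values, although this choice was made with earlier results of these data known. The rule covers probe sets that name 1 gene whose symbol starts with psa, psb, pet, ndh, rpo or ycf, or is rbcL, accD, matK, clpP, cemA or ccsA. The rule took 48 of 22746 probe sets, for 48 genes, all of which RefSeq places on the plastid genome. They comprise 5 psa genes, 15 psb genes, 6 pet genes, 10 ndh genes, 4 rpo genes, 2 ycf genes and 6 others. Another 3 probe sets name both copies of ndhB, ycf1 or ycf2 and were left out.

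Whole roots of 4 groups were profiled on Affymetrix arrays, with 2 arrays per group and 8 in all. The groups were fit without iron (fit -Fe), fit with iron (fit +Fe), wild type without iron (WT -Fe) and wild type with iron (WT +Fe). FIT is a transcription factor of the root epidermis that drives iron uptake. The labels name the mutant only as fit, give neither its allele nor its ecotype, and call the replicates biological. Every plant grew for 14 days on Gamborg's B5 medium and then for 3 days either with 300 µM ferrozine, which binds ferrous iron, and no added iron, or with 50 µM Fe(III)-EDTA. Values are log2 signals after RMA, and 5 of the 48 genes had a mean log2 signal under 4.96, the 25th percentile of all probe sets. Because a probe set's brightness also depends on its probes, levels are set side by side only for the same gene.

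The psa and psb genes encode core subunits of photosystems I and II, the pet genes encode subunits of the cytochrome b6f complex between them, and the ndh genes encode a plastid NADH dehydrogenase-like complex that feeds electrons back into the chain. The rpo genes encode the plastid's own bacterial-type polymerase, which transcribes most photosynthesis genes, while a nucleus-encoded phage-type polymerase transcribes the rpoB transcript and others. Haem or iron-sulfur clusters sit in all of these electron-transport complexes, and photosystem I is especially rich in iron. Root plastids carry the same genome as chloroplasts but make little of the photosynthetic apparatus. Most plastid genes are transcribed together with their neighbours into long RNAs that are cut later. One-cycle labelling primes from poly(A) tails, which plastid RNAs carry mainly while being degraded, so a signal here need not follow the amount of intact RNA. In whole roots, fewer plastid-bearing cells, fewer genome copies and less RNA per cell cannot be told apart.

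Replicate 2 of both -Fe groups stood apart in RNA quality. The mean 3' to 5' signal ratio of the actin, GAPDH and ubiquitin controls was 5.22 on fit -Fe replicate 2 and 3.08 on WT -Fe replicate 2, against 1.07 to 1.53 on the other 6 arrays. Results are therefore given with and without these arrays, and without them each -Fe group is a single array whose spread is assumed to equal that of the +Fe groups. Median log2 signals of the arrays lay between 6.81 and 6.88. Tests are limma fits over all 22746 probe sets with Benjamini-Hochberg adjustment, called at an adjusted p under 0.05.

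In iron-deficient WT roots most plastid genes had lower signals than in iron-sufficient WT roots, by a median log2 difference of -0.65, but with 2 arrays per group only petA passed the test. Across the 48 genes the differences lay between -1.72 and 0.94, and 39 were negative, against 51.5% of all probe sets, whose median was -0.01. Leaving out replicate 2 of both -Fe groups gave a median of -0.81, with 45 of 48 negative, against 52.9% of all probe sets, and again 1 called, beside 0.563%. The 1 gene called lower stood beside 0.431% of all probe sets called in either direction and 0.0747% called lower. Without adjustment, 17 genes were lower at p under 0.05 and 0 higher, where 7.2% of all probe sets passed in either direction. The WT -Fe arrays both lay below both WT +Fe arrays for 25 of 48 genes (52.1%), against 19.3% of all probe sets, and above them for 0, against 18.9%.

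In fit roots the genes had no common direction over all arrays, and 0 were called by limma, beside 0.202% of all probe sets called. The median log2 difference between fit -Fe and fit +Fe was 0.05, with 21 of 48 negative, against 45.3% of all probe sets. At an unadjusted p under 0.05, 3 genes were lower and 0 higher, where 8.52% of all probe sets passed in either direction. The lowest adjusted p was 0.437, for psbL. The fit -Fe arrays both lay below the fit +Fe arrays for 11 genes (22.9%), against 16.4% of all probe sets, and above them for 3 (6.25%), against 19.4%. Leaving out replicate 2 of both -Fe groups moved the median to -0.37, with 41 of 48 negative, against 47.8% of all probe sets, and again 0 called, beside 0.277%. Of single arrays left out, fit -Fe replicate 2, with the highest 3' to 5' ratio, moved the fit median most, to -0.37 with 41 negative. The fit median was -0.06 with 27 negative without fit +Fe replicate 1, and 0.39 with 18 negative without fit -Fe replicate 1. In WT the median stayed negative whichever single array was left out.

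**Figure D1:**
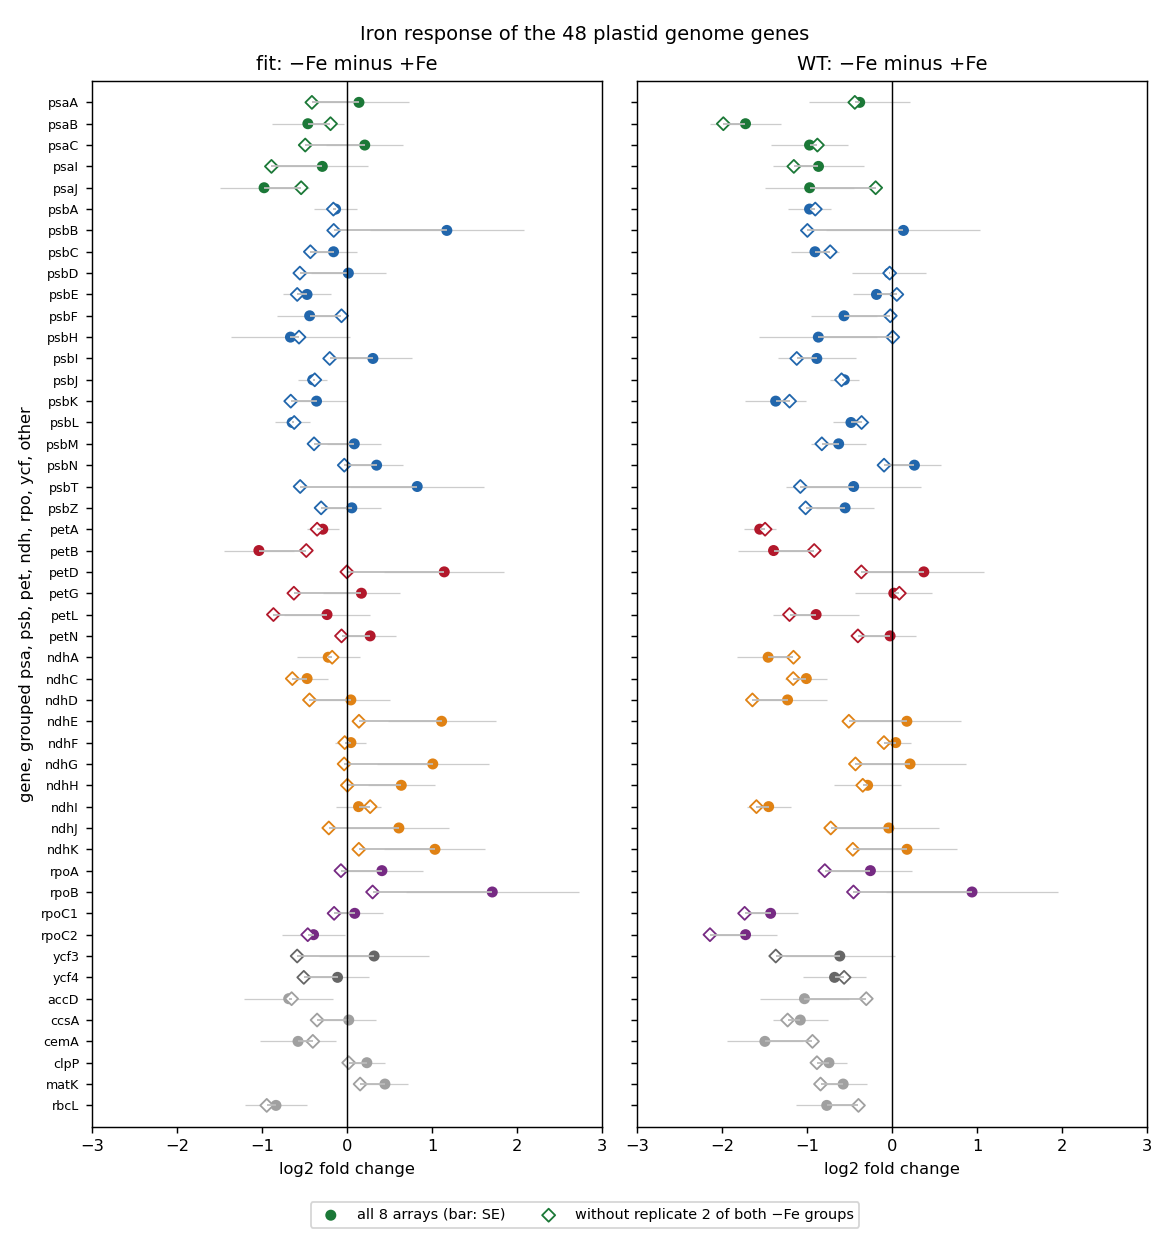
Fitted log2 fold change (-Fe minus +Fe) of each of the 48 genes in fit (left) and WT (right). Filled points with SE bars use all 8 arrays and open diamonds leave out replicate 2 of both -Fe groups. In fit, 21 filled points but 41 diamonds lie below 0, while in WT the numbers are 39 and 45.

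Cytochrome b6f held the only gene called. petA, which encodes cytochrome f, had log2 signals of 8.88 and 8.75 on the WT -Fe arrays, against 10.45 and 10.29 on the WT +Fe arrays. It fell to a mean of 8.81 ± 0.09 in WT -Fe roots, against 10.37 ± 0.11 in WT +Fe roots (SD, n = 2 each), a 2.94-fold decrease (log2 -1.56, SE 0.19, limma adjusted p = 0.0153). Its replicates were close together. The difference was -1.49 without replicate 2 of both -Fe groups and just inside the threshold (limma adjusted p = 0.0487), and over 18 other settings it stayed between -1.63 and -1.41. It passed in 13 of them and missed the threshold without any 1 of the 4 WT arrays (limma adjusted p between 0.117 and 0.183). In fit, petA gave 9.26 and 9.40 on the -Fe arrays, against 9.45 and 9.78 on the +Fe arrays, a difference of -0.28 (SE 0.19, limma adjusted p = 0.704). The 4 fit arrays thus all lay between the WT -Fe and the WT +Fe values.

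Over all arrays the other pet genes went separate ways. Without replicate 2 of both -Fe groups all 6 pet genes were negative in fit, petD only at -0.0015, and 5 of 6 in WT. petB, for cytochrome b6, had 10.49 and 9.37 on the fit -Fe arrays, against 11.06 and 10.87 on the fit +Fe arrays. In WT it had 10.38 and 9.43 on the -Fe arrays, against 11.46 and 11.13 on the +Fe arrays. Both -Fe arrays were below both +Fe arrays in each genotype, with replicate 2 the lower, and the differences of -1.04 (SE 0.42) in fit and -1.39 (SE 0.42) in WT did not pass (limma adjusted p = 0.542 in fit and 0.456 in WT). They were -0.48 in fit and -0.92 in WT without replicate 2. petD, for subunit IV and transcribed with petB, showed the opposite replicate pattern, with 4.77 and 7.06 on the fit -Fe arrays, against 4.74 and 4.81 on the fit +Fe arrays. Its WT values were 4.48 and 5.95 without iron, against 4.85 and 4.82 with iron. Only replicate 2 of each -Fe group stood above the rest, and the fitted differences of 1.14 (SE 0.71) in fit and 0.37 (SE 0.71) in WT became 0.00 in fit and -0.36 in WT without those arrays. The genes for the small subunits petG, petL and petN had differences between -0.24 and 0.27 in fit and between -0.89 and 0.02 in WT. Without replicate 2 of both -Fe groups these lay between -0.87 and -0.06 in fit and between -1.21 and 0.085 in WT.

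**Figure D2:**
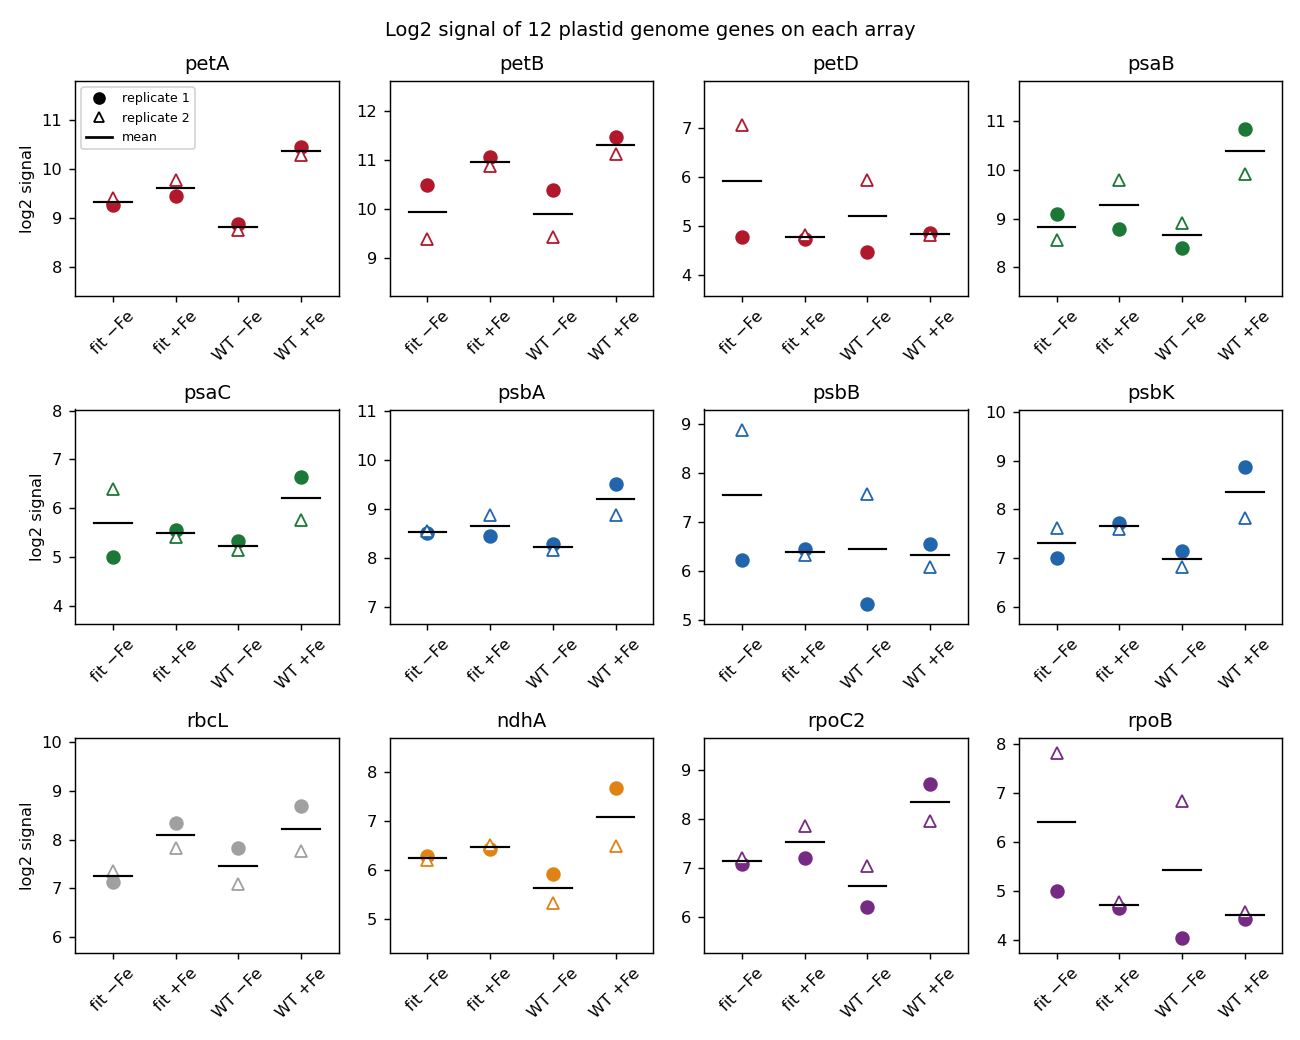
Log2 signal on each of the 8 arrays for some of the genes whose array values are given in the text, 1 panel per gene. The genes are petA, petB, petD, psaB, psaC, psbA, psbB, psbK, rbcL, ndhA, rpoC2 and rpoB. Groups run from left to right fit -Fe, fit +Fe, WT -Fe and WT +Fe, with the replicates marked apart. For petA the WT -Fe points (8.88 and 8.75) lie well below the WT +Fe points (10.45 and 10.29), while for rpoB and psbB replicate 2 of each -Fe group lies far above replicate 1.

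All 5 photosystem I genes had negative differences in WT, with a median of -0.97, and none passed the test. psaB, one of the paired reaction-centre proteins, had 8.39 and 8.91 on the WT -Fe arrays, against 10.84 and 9.92 on the WT +Fe arrays. The WT groups did not overlap, and the difference of -1.72 (SE 0.42, limma adjusted p = 0.289) was -1.98 without replicate 2. In fit, psaB had 9.09 and 8.56 without iron, against 8.79 and 9.78 with iron, and the groups overlapped (-0.46, SE 0.42, or -0.19 without replicate 2). psaA, its partner in the same transcript, had 6.10 and 7.21 on the fit -Fe arrays, against 7.10 and 5.93 on the fit +Fe arrays. In WT, psaA had 6.49 and 6.61 without iron, against 7.72 and 6.14 with iron. Its replicates with iron differed by more than the groups did, so the WT difference of -0.38 (SE 0.59) rested on WT +Fe replicate 1, without which it was 0.41.

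psaC, for the iron-sulfur subunit that passes electrons to ferredoxin, had 5.00 and 6.40 on the fit -Fe arrays, against 5.55 and 5.42 on the fit +Fe arrays. Its WT values were 5.32 and 5.14 without iron, against 6.65 and 5.76 with iron. The WT groups were apart (-0.97, SE 0.45) and the fit groups overlapped (0.21, SE 0.45, or -0.49 without replicate 2). psaJ, for a small subunit, had 7.90 and 7.03 on the fit -Fe arrays, against 8.80 and 8.07 on the fit +Fe arrays, and 8.16 and 6.61 on the WT -Fe arrays, against 8.57 and 8.14 on the WT +Fe arrays. Its differences were alike, -0.97 in each genotype (SE 0.52), and shrank to -0.54 in fit and -0.19 in WT without replicate 2. psaI, also for a small subunit, had -0.29 in fit and -0.87 in WT. Without replicate 2, all 5 genes were negative in fit too, with a median of -0.49, against -0.29 over all arrays. For assembly of photosystem I, ycf3 had 0.32 in fit and -0.61 in WT, or -0.59 in fit and -1.37 in WT without replicate 2. ycf4 had -0.11 in fit and -0.68 in WT, or -0.51 in fit and -0.56 in WT without replicate 2.

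Of the 15 genes named psb, 13 had negative differences in WT, with a median of -0.56, and 8 in fit, with a median of -0.13. Leaving out replicate 2 of both -Fe groups, 13 were negative in WT and all 15 in fit. psbA, for the D1 reaction-centre protein that is replaced fastest in leaves, had 8.29 and 8.16 on the WT -Fe arrays, against 9.52 and 8.87 on the WT +Fe arrays. That difference of -0.97 (SE 0.26, limma adjusted p = 0.348) was -0.90 without replicate 2. In fit, psbA had 8.50 and 8.55 without iron, against 8.44 and 8.88 with iron (-0.13, SE 0.26). psbK, for a small subunit, had the lowest psb value in WT, with 7.15 and 6.82 on the WT -Fe arrays, against 8.87 and 7.83 on the WT +Fe arrays (-1.37, SE 0.35, limma adjusted p = 0.340). Its fit values were 7.01 and 7.61 without iron, against 7.73 and 7.61 with iron (-0.36, SE 0.35, or -0.66 without replicate 2). The genes psbJ and psbL, for small subunits and transcribed together with psbE and psbF for cytochrome b559, had both -Fe arrays below both +Fe arrays in each genotype. psbL differed by -0.64 in fit and -0.48 in WT (SE 0.21), and psbJ by -0.40 in fit and -0.56 in WT (SE 0.17).

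Genes next to each other in the psbB transcript showed how far replicate 2 could set the result. psbB, for the inner antenna protein CP47, had 6.23 and 8.89 on the fit -Fe arrays, against 6.44 and 6.32 on the fit +Fe arrays. In WT it had 5.32 and 7.58 without iron, against 6.55 and 6.08 with iron. Replicate 1 of each -Fe group was below both +Fe arrays of its genotype and replicate 2 above them, so the differences of 1.17 (SE 0.90) in fit and 0.13 (SE 0.90) in WT became -0.16 in fit and -0.996 in WT without replicate 2. psbH, for a phosphorylated small subunit and encoded on the same transcript, had 7.29 and 7.09 on the fit -Fe arrays, against 8.68 and 7.02 on the fit +Fe arrays. Its WT values were 7.80 and 6.05 without iron, against 8.36 and 7.22 with iron, and here replicate 2 was the lower -Fe array in both genotypes. Its differences of -0.66 in fit and -0.87 in WT (SE 0.69) were -0.56 in fit and 0.01 in WT without replicate 2. psbN, which lies on the opposite strand between psbT and psbH and encodes an assembly factor rather than a subunit, had 5.44 and 6.20 on the fit -Fe arrays, against 5.55 and 5.40 on the fit +Fe arrays. It had 5.30 and 6.01 on the WT -Fe arrays, against 5.50 and 5.29 on the WT +Fe arrays. Its differences of 0.35 in fit and 0.26 in WT (SE 0.31) were -0.03 in fit and -0.09 in WT without replicate 2.

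The ndh genes had a median of 0.37 in fit, with 2 of 10 negative, and of -0.16 in WT, with 6 of 10 negative. Without replicate 2 these became -0.03 (6 negative) in fit and -0.61 (10 negative) in WT. Without dim probe sets they were 0.14 in fit and -1.01 in WT. ndhE, for a membrane-arm subunit, had 4.45 and 6.39 on the fit -Fe arrays, against 4.22 and 4.40 on the fit +Fe arrays, and 4.0995 and 5.46 on the WT -Fe arrays, against 4.86 and 4.36 on the WT +Fe arrays. ndhG, for another membrane-arm subunit, had 6.27 and 8.36 on the fit -Fe arrays, against 6.00 and 6.61 on the fit +Fe arrays, and 5.81 and 7.09 on the WT -Fe arrays, against 6.18 and 6.30 on the WT +Fe arrays. In both genes replicate 2 without iron was the high array of its genotype, and the differences in fit were 1.11 (SE 0.63) for ndhE and 1.01 (SE 0.66) for ndhG, or 0.14 and -0.03 without it. In WT they were 0.17 for ndhE and 0.21 for ndhG, or -0.51 and -0.43 without it.

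Other ndh genes had lower signals in both WT -Fe arrays than in both WT +Fe arrays without passing the test. ndhA, for a membrane-arm subunit, had 5.93 and 5.33 on the WT -Fe arrays, against 7.67 and 6.50 on the WT +Fe arrays (-1.46, SE 0.37, limma adjusted p = 0.324). Its fit values were 6.29 and 6.20 without iron, against 6.42 and 6.52 with iron (-0.22, SE 0.37). ndhC had 7.99 and 8.34 on the fit -Fe arrays, against 8.45 and 8.82 on the fit +Fe arrays, and 7.75 and 8.06 on the WT -Fe arrays, against 8.69 and 9.14 on the WT +Fe arrays. Neither genotype's groups overlapped for ndhA or ndhC, and the ndhC differences were -0.47 in fit and -1.01 in WT (SE 0.25, limma adjusted p = 0.289 in WT). ndhI, for a subunit that holds iron-sulfur clusters, came closest to the threshold after petA, at -1.45 in WT (SE 0.26, limma adjusted p = 0.0920), with 0.14 in fit.

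Of the 4 polymerase genes, rpoB, rpoC1 and rpoC2 share a transcript and went different ways over all arrays. Without replicate 2 of both -Fe groups all 4 polymerase genes were negative in WT. rpoB, for the beta subunit, had 5.01 and 7.82 on the fit -Fe arrays, against 4.64 and 4.77 on the fit +Fe arrays. It had 4.05 and 6.83 on the WT -Fe arrays, against 4.43 and 4.57 on the WT +Fe arrays. Replicate 2 exceeded replicate 1 by 2.81 in fit -Fe and by 2.79 in WT -Fe, more than in any other of the 48 genes, and the differences of 1.71 in fit and 0.94 in WT (SE 1.01) were 0.30 in fit and -0.45 in WT without it. rpoC2, for the beta'' subunit at the far end of the rpoB transcript, had 6.20 and 7.03 on the WT -Fe arrays, against 8.72 and 7.96 on the WT +Fe arrays. This difference of -1.72 (SE 0.37, limma adjusted p = 0.178) matched that of psaB as the lowest of all and was -2.14 without replicate 2. In fit, rpoC2 had 7.07 and 7.20 without iron, against 7.21 and 7.85 with iron (-0.39, SE 0.37). rpoC1, for the beta' subunit, had 0.09 in fit and -1.43 in WT, or -0.15 in fit and -1.73 in WT without replicate 2. rpoA, for the alpha subunit, had 0.41 in fit and -0.26 in WT, or -0.07 in fit and -0.79 in WT without replicate 2.

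Of the genes with other functions, rbcL encodes the large subunit of Rubisco, the carbon-fixing enzyme. It had 7.14 and 7.36 on the fit -Fe arrays, against 8.33 and 7.84 on the fit +Fe arrays, and 7.83 and 7.08 on the WT -Fe arrays, against 8.68 and 7.77 on the WT +Fe arrays. The differences of -0.84 in fit and -0.77 in WT (SE 0.36) did not pass, and only in fit were the groups apart. They were -0.94 in fit and -0.40 in WT without replicate 2. The other 5 genes were accD for fatty acid synthesis, matK for splicing, clpP for a protease, ccsA for cytochrome c assembly and cemA for an envelope protein. They had differences between -0.69 and 0.45 in fit and between -1.50 and -0.58 in WT. All 6 were negative in WT and 3 of 6 in fit.

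Set side by side, the complexes had negative medians in WT with and without replicate 2, but not the same order. Over all arrays the WT medians were -0.97 for psa, -0.84 for rpo, -0.56 for psb, -0.46 for pet and -0.16 for ndh. Without replicate 2 of both -Fe groups they were -1.26 for rpo, -0.88 for psa, -0.73 for psb, -0.66 for pet and -0.61 for ndh. In fit the medians over all arrays were -0.29 for psa, -0.13 for psb, -0.03 for pet, 0.25 for rpo and 0.37 for ndh. Without replicate 2 they were -0.49 for psa, -0.42 for pet, -0.39 for psb, -0.11 for rpo and -0.03 for ndh, all negative. Genes of 1 complex share arrays and often a transcript, and no test of the order was made. The order also changed with other settings: in fit the rpo median was above that of ndh without dim probe sets, at 0.25 against 0.14. In WT without dim probe sets, ndh had the lowest median, at -1.01, against -0.97 for psa and -0.89 for pet.

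The mean log2 signal of each complex on each array showed which arrays carried these medians. For psa it was 7.30 and 7.76 on the fit -Fe arrays, 7.81 and 7.80 on the fit +Fe arrays, 7.47 and 7.36 on the WT -Fe arrays and 8.89 and 7.90 on the WT +Fe arrays. For ndh it was 6.03 and 7.02 on the fit -Fe arrays, 5.97 and 6.29 on the fit +Fe arrays, 5.66 and 6.31 on the WT -Fe arrays and 6.67 and 6.27 on the WT +Fe arrays. Over the 48 genes it was 7.20 and 7.95 on the fit -Fe arrays, 7.49 and 7.55 on the fit +Fe arrays, 7.05 and 7.33 on the WT -Fe arrays and 8.08 and 7.59 on the WT +Fe arrays. The highest were thus WT +Fe replicate 1 and fit -Fe replicate 2, and the lowest WT -Fe replicate 1 and fit -Fe replicate 1. WT +Fe replicate 1 was the highest of the 8 arrays for 23 of 48 genes, against 7.08% of all probe sets, and its 3' to 5' ratio of 1.41 lay within the range of the other 5 arrays with low ratios. Leaving it out alone gave a WT median of -0.38 with 34 of 48 negative. Leaving it out with replicate 2 of both -Fe groups, an alternative chosen after seeing the data, gave -0.57 with 38 negative and 0 called, beside 1.27% of all probe sets, petA having a limma adjusted p of 0.0509.

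**Figure D3:**
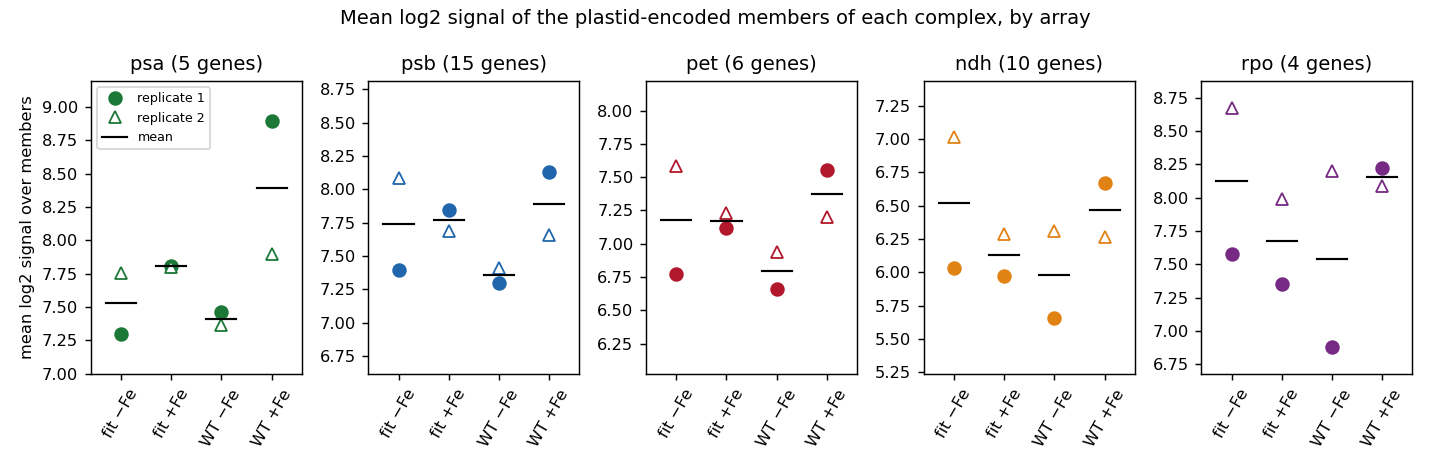
Mean log2 signal over the genes of each complex on each array, with groups from left to right fit -Fe, fit +Fe, WT -Fe and WT +Fe. For psa, WT +Fe replicate 1 (8.89) stands above the other 7 arrays (7.30 to 7.90). For psb, pet, ndh and rpo replicate 2 of both -Fe groups stands above replicate 1.

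Between genotypes under the same iron supply 0 of the 48 genes were called by limma. With iron, fit minus WT had a median of -0.31 with 35 of 48 negative, against 50.45% of all probe sets. The share of all probe sets called was 0.00879%. Unadjusted, 4 genes were lower at p under 0.05 and 0 higher, where 1.84% of all probe sets passed. Both fit +Fe arrays lay below both WT +Fe arrays for 14 genes (29.2%), against 16.5% of all probe sets, and above them for 3 (6.25%), against 17.3%. Without WT +Fe replicate 1 the median was -0.06 with 28 negative, so most of the shift rested on that array. Without iron, fit minus WT had a median of 0.36 with 5 of 48 negative, against 45.55% of all probe sets. The share of all probe sets called was 0.273%. Unadjusted, 3 genes were higher at p under 0.05 and 0 lower, where 5.13% of all probe sets passed. Both fit -Fe arrays lay above both WT -Fe arrays for 9 genes (18.8%), against 13.5% of all probe sets, and below them for 0, against 11.1%. Those 9 were psbA, psbJ, petA, ndhA, ndhI, rpoC1, rpoC2, clpP and ccsA. The median was 0.23 with 17 negative without replicate 2 of both -Fe groups. It was -0.01 with 24 negative without fit -Fe replicate 2 alone, and 0.49 with 9 negative without WT -Fe replicate 2 alone.

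The difference between both iron responses (that of fit minus that of WT) asks whether the lower signals in WT depend on FIT. It was positive for 44 of 48 genes and negative for 4, where 45.35% of all probe sets were negative. The median over the 48 genes was 0.76, against 0.04 over all probe sets. By limma 0 were called, beside 0.0747% of all probe sets, and 8 were higher and 0 lower at an unadjusted p under 0.05, where 3.25% of all probe sets passed in either direction. petA had 1.27 (SE 0.27, limma adjusted p = 0.356) and ndhI had 1.59 (SE 0.37, limma adjusted p = 0.489). The complex medians were 0.58 for psa, 0.61 for psb, 0.51 for pet, 0.89 for ndh and 1.05 for rpo. Without replicate 2 of both -Fe groups 39 of 48 were positive and the median was 0.47. Leaving out WT +Fe replicate 1 as well gave 0.34 with 32 positive. The median was 0.24 with 18 negative without fit -Fe replicate 2 alone, and 0.955 with 8 negative without WT -Fe replicate 2 alone. A lower signal in WT and not in fit was therefore not shown to differ between the genotypes for any single gene.

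**Figure D4:**
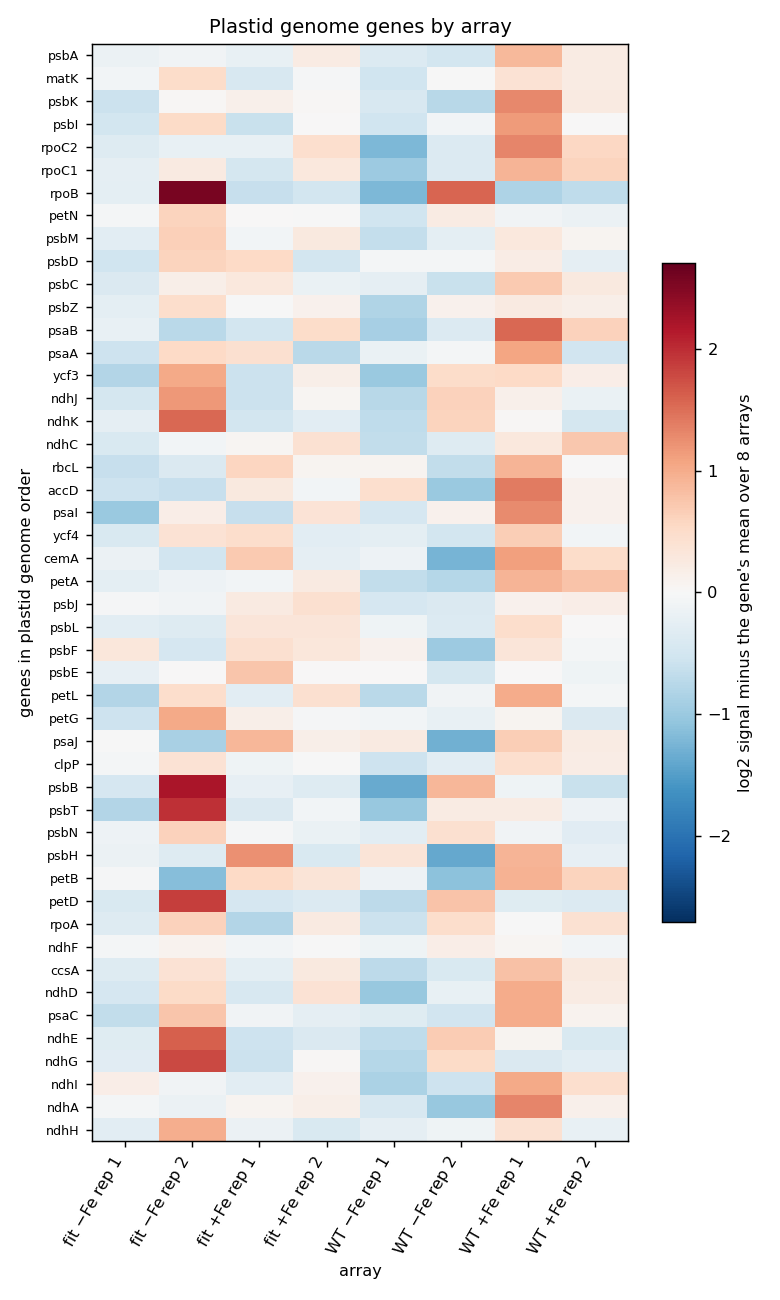
Log2 signal of each gene on each array minus that gene's mean over the 8 arrays, with genes in their RefSeq order along the plastid genome (rows) and arrays by group from left to right fit -Fe, fit +Fe, WT -Fe and WT +Fe (columns). WT +Fe replicate 1 is above the gene mean over most rows, and replicate 2 of both -Fe groups shows high and low stretches that differ between neighbouring genes.

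Replicate 2 and replicate 1 of the -Fe groups differed in a way that was shared by both genotypes. Replicate 2 was the higher for 37 of 48 genes in fit -Fe, with a median difference of 0.70, and for 30 of 48 in WT -Fe, with a median of 0.29. Over all probe sets the shares were 51.5% in fit -Fe and 52.5% in WT -Fe. It was higher in both genotypes for 27 genes, lower in both for 8 and opposite for 13. The differences of the 48 genes in fit -Fe and WT -Fe correlated with Pearson's r = 0.79, against 0.66 over all probe sets. The genes share these 4 arrays and many share a transcript, so this describes the arrays and is not a test. The part of RNA quality in these differences was not tested. With the 3' to 5' ratio entered as a covariate, 43 of 48 genes were negative in fit (median -0.27), with 0 called, beside 0.646% of all probe sets. In WT 46 were negative (median -0.74), with 10 called, beside 1.68% of all probe sets. The ratio was high only on -Fe arrays, so this fit cannot fully separate it from iron supply.

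**Figure D5:**
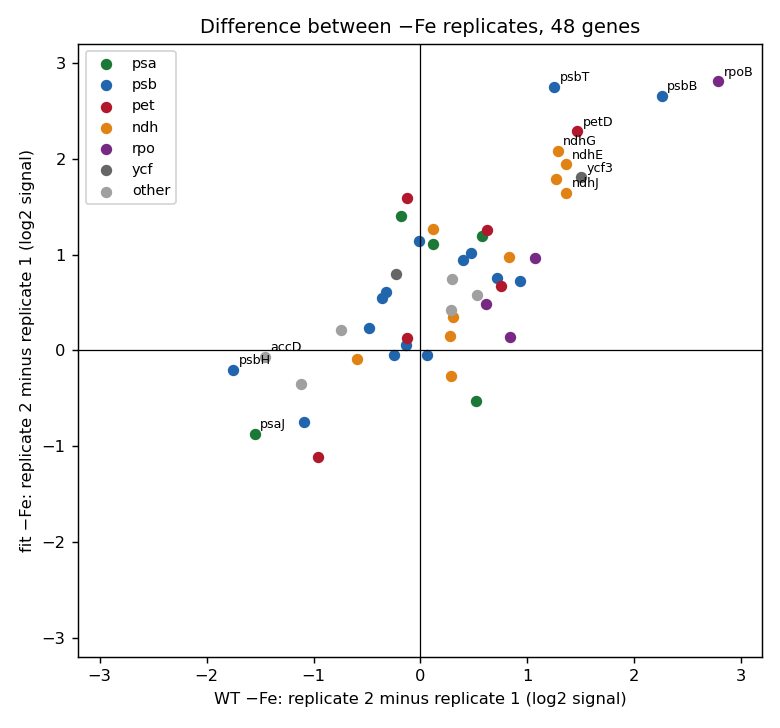
Replicate 2 minus replicate 1 (log2 signal) in fit -Fe (vertical axis) and in WT -Fe (horizontal axis), 1 point per gene for the 48 genes, coloured by complex. High values in fit go with high values in WT (r = 0.79), with rpoB highest in both (2.81 in fit and 2.79 in WT), petB lowest in fit (-1.11) and psbH lowest in WT (-1.75).

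Along the genome, genes of a common transcript did not always go together. In the psbE set (psbE, psbF, psbL and psbJ) and the psaI set (psaI, ycf4, cemA and petA) all 4 genes were negative in both genotypes. This held without replicate 2 of both -Fe groups for the psaI set, while the psbE set had 4 negative in fit and 3 in WT, with psbE at 0.06. In the 6 genes of the psbB region the differences ran from -1.04 to 1.17 in fit and from -1.39 to 0.37 in WT. Their replicate 2 minus replicate 1 ran from -1.11 to 2.75 in fit -Fe and from -1.75 to 2.26 in WT -Fe, with petB and psbH the 2 negative genes in each. In the rpoB set (rpoB, rpoC1 and rpoC2) the differences ran from -0.39 to 1.71 in fit and from -1.72 to 0.94 in WT. Without replicate 2 of both -Fe groups all 3 rpoB-set genes and all 7 measured genes of the ndhH set were negative in WT.

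Nuclear genes of the same complexes were measured in part. Of 73 listed nuclear photosynthesis genes 13 had a probe set naming them alone, and 0 were called by limma in either genotype, beside 0.202% of all probe sets in fit and 0.431% in WT. At an unadjusted p under 0.05, 2 were lower in fit, where 8.52% of all probe sets passed, and 4 in WT, where 7.2% passed, with 0 higher. Their medians were -0.21 in fit, with 10 of 13 negative, and -0.44 in WT, with 12 of 13 negative. PSAN, for a lumenal photosystem I subunit, had -1.17 in fit (SE 0.19, limma adjusted p = 0.0954) and -0.80 in WT (SE 0.19). RPOTmp, a nucleus-encoded phage-type polymerase of mitochondria and plastids, had -0.49 in fit and -0.79 in WT (SE 0.22).

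Markers of green tissue were checked beside these genes. Of 14 listed, RCA and LHCB4.1 were measured, and neither was called. Their mean log2 signal was 7.57 and 7.08 on the fit -Fe arrays, against 7.69 and 8.08 on the fit +Fe arrays, and 7.29 and 7.51 on the WT -Fe arrays, against 7.84 and 7.92 on the WT +Fe arrays. RCA, for Rubisco activase, was lower without iron on every array, by -0.67 in fit and -0.63 in WT (SE 0.17). Of 10 root markers 3 were measured, and PYK10, a root beta-glucosidase, had 13.10 to 13.49 on all 8 arrays. EXPA7 and EXPA18, for expansins of root hairs, had -1.28 and -1.23 in fit and 0.45 and 0.14 in WT. The part of shoot tissue or of cell composition in the plastid signals was not tested.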

How the data were processed

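Root RNA of 8 plant samples, 4 groups of 2, was labelled and hybridised to Affymetrix ATH1 arrays, per the labels' protocols. The authors deposited RMA signal intensity for each probe set, per the submitters' processing notes. The sources used here state neither its version nor which arrays were normalised jointly. These deposited intensity values were linear (7.13 to 21060), so log2 was taken although a log2 scale had been planned for. RMA compresses differences between dim probe sets. Each array's group came from its title.

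Names came from the platform table and RefSeq's TAIR10.1 gene table, which was used for names and gene order. Of the probe sets, 13513 name 1 gene, 503 several, and 8730 are unnamed here. No coordinates or sequences are given. The genes and the lists set beside them were chosen with earlier results of these data known. Array values are given for called genes, petA, psbA, rbcL and the genes of each complex with the highest and lowest iron response.

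Group means were fitted to 22746 probe sets, without 64 control probe sets, in limma 3.58.1 under R 4.3.3, with 4 residual and 3.82 prior degrees of freedom and 5 comparisons. A called probe set has an adjusted p-value under 0.05. Errors are the fit's SE. Precision is limited by 2 arrays per group, and p-values measure the spread between these arrays. The fit was tested on simulated data. The alternatives were a replicate block, single arrays left out, replicate 2 of both -Fe groups left out, other scalings, no dim probe sets, trended and robust spread, array weights, RNA quality as a covariate, and only the arrays compared.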

Additional observations from a re-analysis of the deposited data

How the results depend on the processing

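Replicate numbers recur across groups, but only 2 pairs exist per comparison and the labels give no shared batch. The deviations of equal numbers correlated between groups with r from 0.13 to 0.66 over all probe sets, highest between the -Fe groups. With a replicate block 3 genes were called in WT (petA, ndhC and cemA), beside 0.884% of all probe sets, against 1 beside 0.431% without it. With RNA quality (3' to 5' ratio) as covariate 10 were called in WT, and without WT +Fe replicate 1 and replicate 2 of both -Fe groups (chosen after seeing the data) 0. The shares of all probe sets called were 1.68% and 1.27% there. Leaving out 1 array gave 0 to 1 genes, beside 0.114% to 0.615%. Counts in the other comparisons stayed at 0, within the settings run. The 3' to 5' ratio was high only on -Fe arrays, so the fit with that covariate cannot fully separate it from iron supply.

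Of the WT medians, pet was -0.89 and ndh -1.01 without dim probe sets, ndh was -0.61 without replicate 2 of both -Fe groups, and psa was -0.43 when WT +Fe replicate 1 was left out too. Leaving out 1 array, psa ran from -1.42 to -0.52, rpo from -1.26 to -0.42, psb from -0.73 to -0.32, pet from -0.82 to -0.18 and ndh from -0.61 to 0.065 in WT, and psa from -0.61 to 0.31, rpo from -0.19 to 0.70, psb from -0.39 to 0.11, pet from -0.42 to 0.50 and ndh from -0.031 to 0.90 in fit.

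Of the genes whose array values are given above, those that changed sign did so mainly with the high-ratio arrays. Only these genes are listed here. Others changed sign too, such as psbT in fit, from 0.83 to -0.55 without replicate 2 of both -Fe groups. The causes were not tested. Without replicate 2 of both -Fe groups, WT values were ndhE -0.51, ndhG -0.43, petD -0.36, psbB -0.996, psbH 0.0076, psbN -0.095 and rpoB -0.45. Fit values were ndhG -0.034, petD -0.0015, psaA -0.41, psaC -0.49, psbB -0.16 and psbN -0.032, and were the same when WT +Fe replicate 1 was left out too. That last setting gave in WT ndhE -0.26, ndhG -0.49, petD -0.35, psaA 0.35, psaJ 0.022, psbB -0.76, psbH 0.58, rbcL 0.06 and rpoB -0.52. With the ratio as covariate, WT values were ndhE -0.22, ndhG -0.21, petD -0.072 and psbB -0.43. Fit values were ndhE -0.0058, ndhG -0.19, petD -0.12, psaA -0.17, psaC -0.23, psbB -0.44, psbH 0.093, psbN -0.12 and rpoB -0.14. Leaving out 1 array, WT values ran from -0.51 to 0.86 for ndhE, -0.43 to 0.85 for ndhG, -0.36 to 1.11 for petD, -1.17 to 0.41 for psaA, -0.996 to 1.26 for psbB, -1.74 to 0.0076 for psbH, -0.095 to 0.62 for psbN and -0.45 to 2.33 for rpoB. Fit values ran from -0.034 to 2.05 for ndhG, -0.0015 to 2.29 for petD, -0.44 to 0.72 for psaA, -0.96 to 0.038 for psaB, -0.49 to 0.91 for psaC, -0.35 to 0.082 for psbA, -0.16 to 2.50 for psbB, -1.49 to 0.16 for psbH and -0.032 to 0.73 for psbN.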

Other observations

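The other plastid genome genes, for ribosomal proteins and the plastid ATP synthase, had a median difference of 0.01 in fit (10 of 21 negative) and -0.73 in WT (18 of 21 negative), with 0 called by limma in either genotype, beside 0.202% of all probe sets in fit and 0.431% in WT. At an unadjusted p under 0.05, 1 was lower in fit, where 8.52% of all probe sets passed, and 8 in WT, where 7.2% passed, with 0 higher. rps15, for a small-subunit ribosomal protein, had the lowest adjusted p in WT (-1.03, SE 0.18, limma adjusted p = 0.0753) and 0.03 in fit. Without replicate 2 of both -Fe groups the medians were -0.07 in fit and -0.67 in WT, with 13 and 20 negative.

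The 11 measured mitochondrial genome genes, for respiratory chain subunits and a maturase, had a median of 0.46 in fit (2 negative) and -0.22 in WT (8 negative). By limma 0 were called in either genotype, beside 0.202% of all probe sets in fit and 0.431% in WT. At an unadjusted p under 0.05, 2 were higher in fit and 0 lower, where 8.52% of all probe sets passed, and 0 passed in WT, against 7.2%. nad1, for a complex I subunit, had 1.09 in fit (SE 0.20, limma adjusted p = 0.144) and -0.17 in WT, and is the brightest of 7 probe sets for that gene. Without replicate 2 of both -Fe groups the medians were 0.09 in fit and -0.45 in WT.

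Of the probe sets that name 2 gene copies, ycf1 had -0.28 in fit and -1.28 in WT (SE 0.24, limma adjusted p = 0.117). ndhB had 0.71 in fit and 0.22 in WT, or -0.20 in fit and -0.63 in WT without replicate 2 of both -Fe groups. ycf2 had 0.73 in fit and 0.43 in WT, or -0.22 in fit and 0.01 in WT without those arrays.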
